A study of Mus musculus with 12 samples.

Results

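The genes described here are 40 neuronal and synaptic transcripts, chosen by name, and read as a measure of neuronal RNA in preparations labelled microglia. All 40 were found among the 23845 genes of the deposited tables, and all 40 passed the filter on low counts that left 15295 genes for testing. The libraries were made from microglia of C57BL6/J mice aged 3 to 4 months, isolated on Percoll density gradients, with poly(A) selection and 1 animal per library. There were 4 groups of 3 libraries. CPEB1-KO-LPS mice lacked CPEB1 by label and received bacterial lipopolysaccharide (LPS) 24 h before isolation, CPEB1-KO mice carried the same genotype without LPS, WT-LPS mice were wild type and received LPS, and WT mice were wild type without LPS. The sources used here do not give the knockout allele, the LPS dose, the sex of the animals or any vehicle injection.

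Neurons pass signals by fusing transmitter-filled vesicles at the presynaptic terminal, and receptors, scaffolds and kinases on the dendrite of the next cell receive them. Microglia are the macrophages of the brain, and the genes of the list are textbook markers of neurons. CPEB1, the protein that the knockout is labelled to lack, binds mRNAs and controls their poly(A) tails and translation. In neurons its known targets include the mRNA of Camk2a, the kinase subunit of dendritic spines.

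The labelled cell type was present in every library. P2ry12, a purine receptor that marks resting microglia, had 9.79 to 71.7 TPM (transcripts per 1e+06 transcripts) in CPEB1-KO-LPS, 238 to 307 TPM in CPEB1-KO, 16.3 to 78.8 TPM in WT-LPS and 441 to 505 TPM in WT. Csf1r, the receptor for the growth factor on which microglia depend, had 167 to 655 TPM in CPEB1-KO-LPS, 394 to 602 TPM in CPEB1-KO, 218 to 1169.5 TPM in WT-LPS and 744 to 925 TPM in WT. Total expected counts were 5.02 to 13.5 M (1e+06 counts) per library, of which the 40 genes held 34574 to 238709 counts. Cpeb1, the targeted gene (chromosome 7, 81347026 to 81455465 of mm10), had 34.6, 40.6 and 24.0 TPM in CPEB1-KO-LPS, 17.6, 26.4 and 21.2 TPM in CPEB1-KO, 40.2, 24.1 and 45.1 TPM in WT-LPS, and 19.9, 15.5 and 43.2 TPM in WT. The groups overlapped, and the average genotype difference was -0.32 ± 0.23 on the log2 scale (edgeR, adjusted p = 0.543). Which part of the gene was deleted is not given in the sources used here, so a gene-level count does not check the label.

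Promoters are shown for 3 members that differed between WT-LPS and WT and whose start lies in a RefSeq promoter table (GRCm38.p6, 250 bases before to 50 after the start, 5′ to 3′ on the gene's strand). The table held 29 of the 40 members. Sst (chr16:23890795-23891094, minus strand) and Npy (chr6:49822460-49822759, plus strand) encode neuropeptides of inhibitory interneurons, and Gad2 (chr2:22622077-22622376, plus strand) encodes an enzyme that makes GABA. Capitals mark the cyclic AMP response element TGACGTCA in Sst and a match to the RE1 element in Gad2, the site bound by the neuronal repressor REST. Npy held neither motif.
Sst: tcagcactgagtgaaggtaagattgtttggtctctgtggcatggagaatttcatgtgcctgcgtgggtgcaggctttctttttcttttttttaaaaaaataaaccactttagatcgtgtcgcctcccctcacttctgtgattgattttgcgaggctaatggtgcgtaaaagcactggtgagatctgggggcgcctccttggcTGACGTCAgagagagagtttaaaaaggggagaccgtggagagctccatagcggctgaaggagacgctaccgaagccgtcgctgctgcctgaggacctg
Npy: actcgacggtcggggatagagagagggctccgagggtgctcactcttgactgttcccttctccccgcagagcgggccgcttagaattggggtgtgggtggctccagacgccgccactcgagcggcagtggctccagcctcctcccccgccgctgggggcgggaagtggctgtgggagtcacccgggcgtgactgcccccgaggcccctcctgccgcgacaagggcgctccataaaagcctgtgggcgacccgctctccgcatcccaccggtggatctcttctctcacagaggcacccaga
Gad2: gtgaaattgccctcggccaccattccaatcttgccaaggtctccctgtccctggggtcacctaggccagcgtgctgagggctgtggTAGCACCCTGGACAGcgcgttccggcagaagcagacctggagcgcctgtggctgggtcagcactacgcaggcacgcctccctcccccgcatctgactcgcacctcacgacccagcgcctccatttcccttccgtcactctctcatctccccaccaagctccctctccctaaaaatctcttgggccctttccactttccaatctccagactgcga
Both strands were searched, and no member held both motifs. The response element began 48 bases before the Sst start and was also found in Syn1 and Th, which makes 3 of 29 members against 1.79% of all 32851 promoters of that length. The RE1 match began 164 bases before the Gad2 start, with another in Gria2, against 0.244% of all promoters. These matches describe the letters of the windows. Both distances are from the RefSeq start, and the GENCODE M21 gene bounds given below for Sst and Gad2 begin further upstream.

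The neuronal transcripts were abundant, and in the wild-type groups the replicates differed by more than the group means did. Their summed level was 10844, 11398 and 6849 TPM in CPEB1-KO-LPS, 9962, 11560.2 and 12955 TPM in CPEB1-KO, 14302, 5807 and 7322 TPM in WT-LPS, and 10673, 3975 and 5635 TPM in WT. Replicate 1 stood well above replicates 2 and 3 in both wild-type groups, replicate 3 was the low library of CPEB1-KO-LPS, and the CPEB1-KO libraries lay closest together. Group means were 9697 ± 2482 TPM in CPEB1-KO-LPS, 11492 ± 1498 TPM in CPEB1-KO, 9144 ± 4531 TPM in WT-LPS and 6761 ± 3488 TPM in WT (SD, n = 3). The lowest and highest library, WT replicate 2 and WT-LPS replicate 1, held 0.397% and 1.43% of their transcripts in the 40 genes, a 3.60-fold range. In bulk RNA, fewer cells of a type and less RNA per cell cannot be told apart.

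A list of 72 other neuronal genes (synaptic, axonal and channel genes, among them Syp, Uchl1 and Stmn3) moved with the 40. The ratio of the 40 to the 72 lay between 0.651 and 0.796 in all 12 libraries. The summed level of 16 microglia markers ran from 4652 TPM in CPEB1-KO-LPS replicate 2 to 21412 TPM in WT-LPS replicate 2, and its 3 lowest libraries (CPEB1-KO-LPS replicates 1 and 2 and WT-LPS replicate 1) were all above the median of the neuronal sum. The ratio of the 40 genes to the microglia markers was 1.51, 2.45 and 0.416 in CPEB1-KO-LPS, 0.759, 1.22 and 1.58 in CPEB1-KO, 2.97, 0.271 and 0.489 in WT-LPS, and 0.671, 0.203 and 0.325 in WT. It thus spanned 14.7-fold, and the WT-LPS mean was carried by replicate 1. In WT-LPS against WT 8 of the 16 microglia markers fell (among them P2ry12, Tmem119 and Cx3cr1), against 14.9% of all genes called lower. The ratio of the 40 genes to the markers therefore also moves with the markers.

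**Figure D1:**
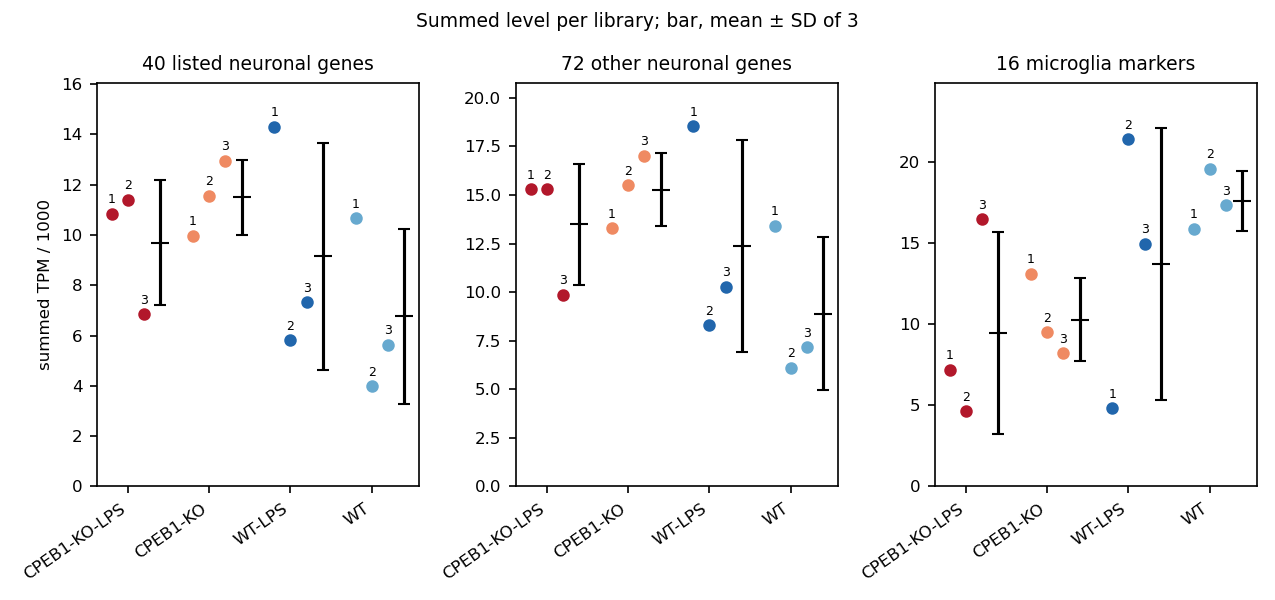
Summed TPM, divided by 1000 (vertical axes), of the 40 neuronal genes, of 72 other neuronal genes and of 16 microglia markers in each library, with groups along the horizontal axes, replicate numbers beside the points and bars for the mean ± SD of 3 libraries. The first and second panels show a similar order of libraries, with WT-LPS replicate 1 highest at 14302 and 18549.6 TPM, while that library is near the bottom of the microglia panel at 4809 TPM.

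The order of libraries was largely shared across functions. In CPEB1-KO-LPS, replicate 3 had the lowest TPM of the 3 libraries for 40 of 40 members, where it was lowest for 67.2% of all genes. There, replicate 2 was highest for 27 members and replicate 1 for 13 (31.8% and 46.6% of all genes). In CPEB1-KO, replicate 3 was highest for 30 members (33.0% of all genes) and replicate 1 lowest for 34 (47.6%). In WT-LPS, replicate 1 was highest for 30 members (43.7%) and replicate 2 lowest for 34 (47.7%). In WT, replicate 1 was highest for 34 members (51.4%) and replicate 2 lowest for 31 (54.5%). In TMM-scaled CPM (counts per 1e+06 counts) the order was looser: the library lowest for most members was lowest for 35 (CPEB1-KO-LPS replicate 3), 25 (CPEB1-KO replicate 1), 23 (WT-LPS replicate 2) and 26 (WT replicate 2) of the 40. The share of all genes was not taken in CPM. CPEB1-KO-LPS replicate 3 also differed from its group in other markers. Its 4 erythroid markers summed to 61141 TPM, against 7051 and 11850.5 TPM in CPEB1-KO-LPS replicates 1 and 2 and 41663 to 66991 TPM in WT. Its 6 border macrophage markers summed to 39.4 TPM, against 18.4 and 24.8 TPM in the same 2 libraries, and its microglia markers to 16474 TPM, against 7188 and 4652 TPM. Their part in the low neuronal level of that library was not tested.

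A subset departed from that order. WT-LPS replicate 3, not replicate 1, was highest for 10 members, namely Map2, Camk2a, Shank3, Gria1, Gria2, Grin1, Grin2b, Scn2a1, Cacna1a and Reln (39.5% of all genes). These include 4 of the 5 receptor subunits and 2 of the 3 channels of the list, and none of the 6 vesicle-release genes. All but Camk2a and Grin1 are also among the 10 longest members by annotation, where Gad2 and Scn1a are the others. The vesicle-release genes are at most 4745 bases long (Syt1). The parts of role and length in this grouping were not tested. WT replicate 3 was highest for 6 members, namely Rbfox3, Gria1, Grin1, Grin2b, Cacna1a and Npy (32.9%). Over all 12 libraries, WT-LPS replicate 1 held the highest level of 18 members and WT replicate 2 the lowest of 28. The share of all genes was not taken for these counts. Within its group WT replicate 2 was lowest for 54.5% of all genes.

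**Figure D2:**
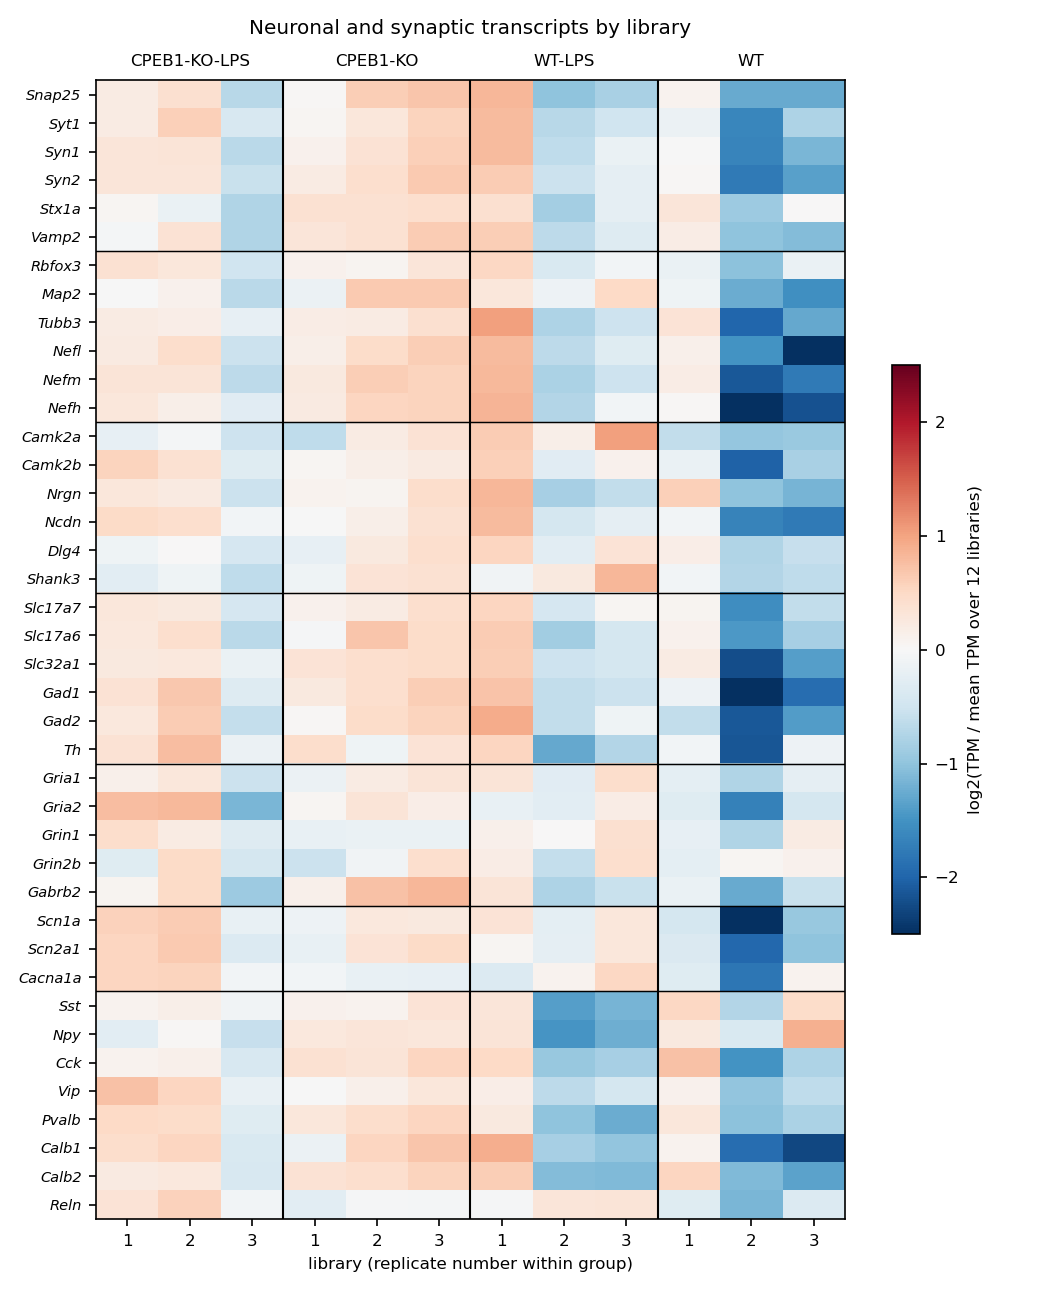
Level of each of the 40 genes (rows, ordered by role) in each library (columns), as log2 of TPM over the gene's mean TPM in 12 libraries, with the colour scale ending at 2.5 on either side. WT replicates 2 and 3 and WT-LPS replicate 2 are mostly blue (low), WT-LPS replicate 1 is mostly red (high), and Grin2b, Grin1 and Npy break the pattern.

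Levels between genes differed widely, from Snap25 with a mean of 1372 TPM over 12 libraries to Grin2b with 2.04 TPM, and 23 of the 40 averaged at least 100 TPM. The highest library exceeded the lowest by 2.10-fold (Grin2b) to 11.6-fold (Nefl), with a median of 4.65-fold.

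Among the 6 vesicle-release genes, Snap25, a SNARE protein of the presynaptic membrane, was the most abundant. It had 1579, 1809 and 853 TPM in CPEB1-KO-LPS, 1405, 2091 and 2208 TPM in CPEB1-KO, 2440 TPM in WT-LPS replicate 1 with 686 and 783 TPM in the other WT-LPS libraries, and 1457, 576 and 572 TPM in WT. Its highest library was that of the summed level, WT replicates 2 and 3 were the lowest, and the groups overlapped. Vamp2, the SNARE protein of the vesicle, Syt1, its calcium sensor, and Syn1 and Syn2, which tether vesicles, had group means of 523, 245, 142 and 132 TPM in CPEB1-KO-LPS and 386, 130.2, 80.0 and 71.4 TPM in WT. Syn1 and Syn2 kept close to each other, at a ratio of 0.998 to 1.25 in every library. Stx1a, the syntaxin that pairs with Snap25, had 98.1, 85.0 and 56.7 TPM in CPEB1-KO-LPS, against 124, 124 and 128 TPM in CPEB1-KO. It had 125, 52.9 and 81.7 TPM in WT-LPS, against 117, 50.5 and 94.9 TPM in WT, so the knockout groups did not overlap and the wild-type groups did.

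The 6 nuclear and cytoskeletal markers summed to between 304 and 1632 TPM over the 12 libraries. The neurofilament subunits Nefl, Nefm and Nefh, which fill large axons, reached 333, 270 and 101 TPM in WT-LPS replicate 1, against 28.6, 45.2 and 12.3 TPM in WT replicate 3. Nefl and Nefm overlap on chromosome 14 on opposite strands in GENCODE M21, and strand use in counting is not given in the sources used here, so their reads may be shared. Tubb3, neuronal beta-tubulin, ranged 8.07-fold. Map2, a microtubule protein of dendrites, had 127, 138 and 81.0 TPM in CPEB1-KO-LPS, 115, 203 and 203 TPM in CPEB1-KO, 157, 117 and 180.4 TPM in WT-LPS, and 119, 54.6 and 44.1 TPM in WT. Rbfox3, the splicing factor known as NeuN, varied 2.92-fold.

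Among the 6 postsynaptic genes, Camk2a and Camk2b encode the alpha and beta subunits of the calcium/calmodulin kinase of dendritic spines. Camk2a (chromosome 18) had 299, 333 and 241 TPM in CPEB1-KO-LPS, 224, 398 and 445 TPM in CPEB1-KO, 540.5, 385 and 704 TPM in WT-LPS, and 226, 177 and 183 TPM in WT. The WT-LPS libraries lay above all WT and all CPEB1-KO-LPS libraries, and this held for WT-LPS replicate 2, which was low for most other members. Camk2b had 463, 408 and 256 TPM in CPEB1-KO-LPS, 325, 347 and 365 TPM in CPEB1-KO, 475, 259 and 339 TPM in WT-LPS, and 280.0, 77.4 and 178 TPM in WT. The Camk2a to Camk2b ratio was 0.645 to 0.943 in CPEB1-KO-LPS, 0.690 to 1.22 in CPEB1-KO, 1.14 to 2.08 in WT-LPS and 0.806 to 2.29 in WT.

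Shank3, a scaffold below the postsynaptic membrane, had 33.4, 37.2 and 25.9 TPM in CPEB1-KO-LPS, 37.4, 51.1 and 52.5 TPM in CPEB1-KO, 38.0, 47.3 and 71.2 TPM in WT-LPS, and 38.2, 24.2 and 26.0 TPM in WT. CPEB1-KO-LPS libraries lay below all CPEB1-KO and all WT-LPS libraries. Relative to Snap25 its level varied 5.84-fold over libraries, and that of Camk2a 5.80-fold, with WT-LPS replicates 2 and 3 at the top for both. Dlg4 (PSD-95), the scaffold of excitatory synapses, averaged 205 ± 30.3 TPM in CPEB1-KO-LPS, 258 ± 54.2 TPM in CPEB1-KO, 271 ± 71.8 TPM in WT-LPS and 181 ± 64.6 TPM in WT. Nrgn, a calmodulin-binding protein of forebrain spines, and Ncdn (neurochondrin) averaged 901 and 474 TPM over all libraries. Both were highest in WT-LPS replicate 1 and lowest in WT replicate 3.

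The 6 genes of transmitter synthesis and loading showed transcripts of excitatory, inhibitory and catecholamine neurons side by side. Slc17a7, the vesicular glutamate transporter of cortical and cerebellar neurons, exceeded Slc32a1, the vesicular GABA transporter, by 3.39 to 6.89-fold in every library, and exceeded Slc17a6, the transporter of subcortical glutamate neurons, by 13.3 to 26.1-fold. Gad1 and Gad2 make GABA from glutamate. Gad2 (chromosome 2, 22622205 to 22693874) had 39.7, 50.8 and 21.9 TPM in CPEB1-KO-LPS, 33.4, 45.1 and 48.1 TPM in CPEB1-KO, 62.3, 21.5 and 30.3 TPM in WT-LPS, and 21.5, 7.60 and 12.6 TPM in WT. The WT libraries were the lowest, with WT replicate 1 level with WT-LPS replicate 2. Gad1 averaged 230 ± 74.8 TPM in CPEB1-KO-LPS, 254 ± 32.2 TPM in CPEB1-KO, 186 ± 104 TPM in WT-LPS and 82.9 ± 78.2 TPM in WT. Th, the first enzyme of dopamine synthesis, averaged 16.9 TPM over all libraries.

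Of the 5 receptor subunits, Gabrb2 had its highest WT-LPS level in replicate 1, as the vesicle-release genes did, and the other 4 had theirs in replicate 3. Grin1, the obligatory NMDA receptor subunit, had 328, 277 and 193 TPM in CPEB1-KO-LPS, 211, 215 and 215 TPM in CPEB1-KO, 265, 245 and 319 TPM in WT-LPS, and 211, 144 and 279 TPM in WT. Gria1 and Gria2, subunits of AMPA receptors, averaged 87.2 and 78.5 TPM over all libraries, and their ratio ran from 0.470 in WT replicate 2 to 1.41 in CPEB1-KO-LPS replicate 1. Gabrb2, a GABA-A receptor subunit, averaged 24.8 ± 10.8 TPM in CPEB1-KO-LPS, 37.7 ± 9.22 TPM in CPEB1-KO, 20.98 ± 8.90 TPM in WT-LPS and 16.6 ± 6.03 TPM in WT. Grin2b, the NMDA receptor subunit of the forebrain, stayed between 1.35 and 2.83 TPM.

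Among the 3 channels, the sodium channel genes Scn1a and Scn2a1 both lie on chromosome 2, and Cacna1a encodes the P/Q-type calcium channel of synaptic terminals. Scn1a (66270778 to 66440840) had 41.4, 43.5 and 24.6 TPM in CPEB1-KO-LPS, 25.7, 33.6 and 33.1 TPM in CPEB1-KO, 35.6, 23.7 and 34.0 TPM in WT-LPS, and 20.6, 4.93 and 14.4 TPM in WT. The WT libraries were the lowest, below every library of the other groups. Scn2a1 averaged 31.7 ± 10.5 TPM in CPEB1-KO-LPS, 29.6 ± 6.80 TPM in CPEB1-KO, 25.9 ± 4.65 TPM in WT-LPS and 12.8 ± 6.47 TPM in WT. Cacna1a had a mean of 49.9 TPM and was lowest in WT replicate 2, at 14.3 TPM.

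The 8 peptides and subtype markers mark interneuron classes and special neurons. Sst (somatostatin; chromosome 16, 23889573 to 23890958) had 779.8, 811 and 688 TPM in CPEB1-KO-LPS, 795, 782 and 937 TPM in CPEB1-KO, 909, 283 and 329 TPM in WT-LPS, and 1053, 443 and 1016 TPM in WT. WT-LPS replicates 2 and 3 were the lowest of all 12 libraries, while WT-LPS replicate 1 lay within the range of WT. Npy (neuropeptide Y; chromosome 6, 49822710 to 49829507) had 195, 239 and 157 TPM in CPEB1-KO-LPS, 283, 289.8 and 286 TPM in CPEB1-KO, 294, 84.2 and 102 TPM in WT-LPS, and 279, 181 and 433 TPM in WT. All CPEB1-KO-LPS libraries lay below all CPEB1-KO libraries, and WT-LPS replicate 1 again lay within the WT range.

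Pvalb, the calcium buffer of fast-spiking interneurons, had 607, 591 and 349 TPM in CPEB1-KO-LPS, 523, 584 and 629.6 TPM in CPEB1-KO, 508, 214 and 184 TPM in WT-LPS, and 529, 211 and 251 TPM in WT. The Sst to Pvalb ratio was 1.28 to 1.97 in CPEB1-KO-LPS, 1.34 to 1.52 in CPEB1-KO, 1.33 to 1.79 in WT-LPS and 1.99 to 4.05 in WT. Cck, a peptide of cortical neurons, averaged 567 TPM over all libraries, and Calb2, Calb1 and Vip averaged 157, 90.1 and 26.5 TPM. Reln (reelin; chromosome 5, 21884454 to 22344702), an extracellular protein secreted by Cajal-Retzius cells and interneurons, had 19.8, 23.4 and 15.0 TPM in CPEB1-KO-LPS, 13.03, 15.4 and 15.2 TPM in CPEB1-KO, 15.4, 19.3 and 19.7 TPM in WT-LPS, and 12.7, 7.10 and 12.4 TPM in WT. WT-LPS libraries lay above WT libraries, and the knockout groups overlapped.

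**Figure D3:**
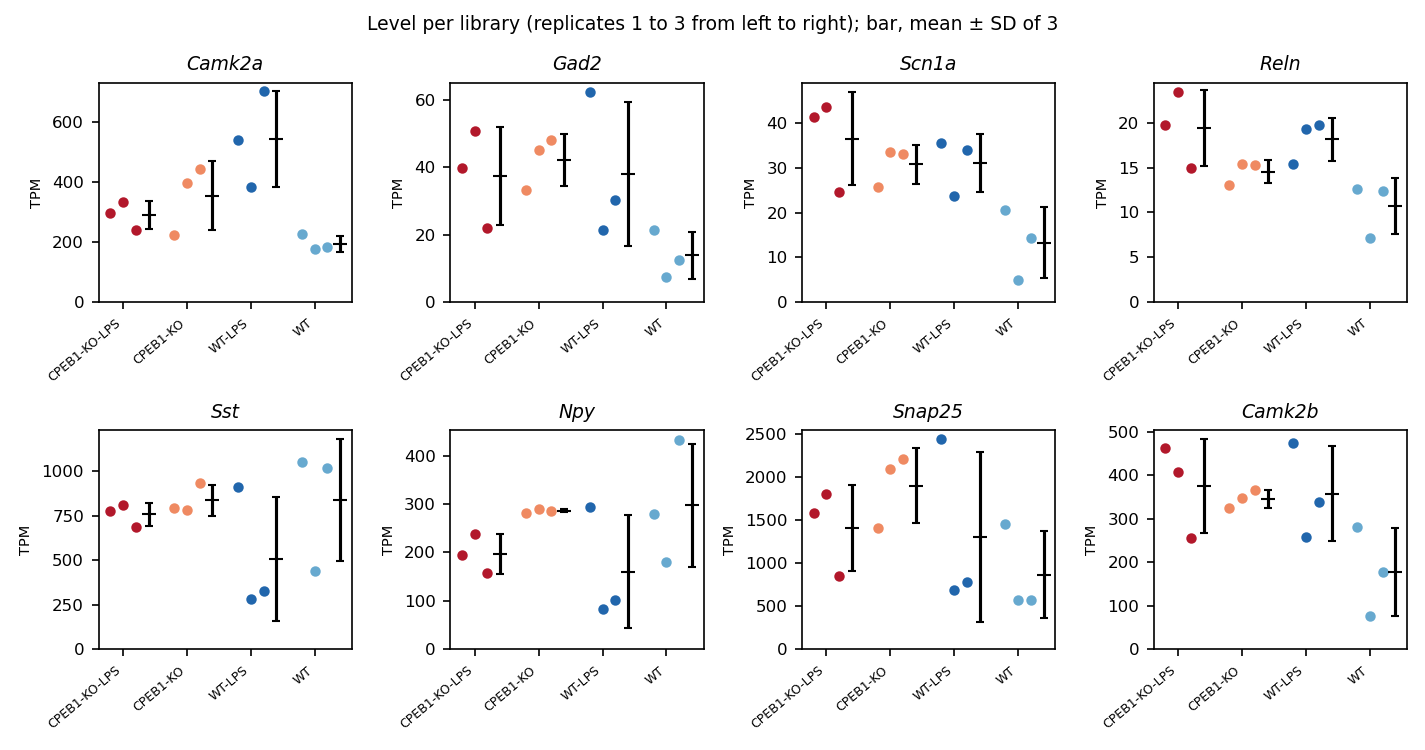
TPM (vertical axes) of 8 members in each library, with groups along the horizontal axes, points for replicates 1 to 3 from left to right and bars for the mean ± SD of 3 libraries. Camk2a, Scn1a and Reln in WT-LPS sit above WT without overlap, Sst and Npy in WT-LPS split into 1 library at the level of WT and 2 below it, and Snap25 and Camk2b show the spread of most members.

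The LPS response in wild-type mice asks which transcripts differ 24 h after the injection. In WT-LPS against WT, 3 of the 40 genes rose and 2 fell (edgeR quasi-likelihood test, Benjamini-Hochberg FDR 0.05 over 15295 genes), against 27.4% of all genes called (12.4% higher and 14.9% lower). Camk2a rose by a log2 fold change of 1.17 ± 0.29 (SE, adjusted p = 0.0105), Gad2 by 1.13 ± 0.36 (adjusted p = 0.0348) and Scn1a by 0.94 ± 0.32 (adjusted p = 0.0423). Npy changed by -1.24 ± 0.38 (adjusted p = 0.0286) and Sst by -1.05 ± 0.37 (adjusted p = 0.0487). The share of members called lay below that of all genes. Of the 40 log2 fold changes 30 were positive, with a median of 0.33, against a median of -0.03 over all genes. The median was 0.14 with 23 positive without WT-LPS replicate 1, 0.21 with 28 positive without WT replicate 2, and 0.59 with 34 positive without WT replicate 1.

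These calls, other than that of Camk2a, depended on single libraries. Camk2a passed in all 22 alternatives, at log2 fold changes of 0.93 to 1.44, Gad2 in 18, Npy in 16, Scn1a in 12 and Sst in 8. Without WT replicate 1, the WT library richest in neuronal RNA, 17 members passed (16 higher, 1 lower), which is 42.5% of members against 28.9% of all genes. Without WT-LPS replicate 1, 6 passed (15%, against 26.3% of all genes), with Camk2a, Sst and Npy kept, Gad2 and Scn1a lost, and Shank3, Pvalb and Reln added. Without WT replicate 2, 3 passed (7.5%, against 22.5% of all genes), and without WT replicate 3 only Camk2a passed (2.5%, against 18.9%). Without WT-LPS replicate 2 or 3 the calls were Camk2a and Gad2 (5%, against 19.8% and 17.5%). Without CPEB1-KO replicate 1, 2 or 3, which enter through the shared estimate of the spread, 3 passed (7.5%, against 24.6%, 22.9% and 23.7% of all genes). With limma on log2(TPM + 1) the split was 10 higher and 0 lower (25% of members, 29.2% of all genes), on a scale where the median of all genes stood at 0.28.

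Same-numbered WT-LPS and WT libraries deviated together, as the summed level also shows for replicate 1. With the replicate number as a block in these 2 groups alone, 13 members passed, 11 higher and 2 lower, of 3955 calls among 14657 genes (32.5% of members, 27.0% of all genes). This fit was chosen after seeing the data, on a pairing drawn from the same libraries. Each library was 1 animal, and the labels tie no replicate numbers. The 8 further members were Nefl, Nefm, Nefh, Camk2b, Ncdn, Gad1, Scn2a1 and Calb1, all higher. With the block over all 12 libraries the 5 calls were those of the fit without it. When library sizes were set to the summed counts of the 72 other neuronal genes, which moved the median of all genes to -0.27, Camk2a (0.93) and Gad2 (0.82) were still higher and Npy (-1.68) and Sst (-1.44) lower, and 22 of 40 log2 fold changes were positive.

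The other neuronal genes gave a like picture. Of the 72, 8 rose and 4 fell in WT-LPS against WT (16.7%, against 27.4% of all genes). Those higher included postsynaptic Grin2a, Shank2 and Iqsec2, the microtubule protein Map1a and the channels Kcna1 and Cacna1e. Mapt (tau), Unc13a, Sypl2 and Kcna2 were lower. Of 12 neuronal transcription factors, 0 passed with edgeR in this comparison. Beside these, monocyte markers (4 of 6) rose and choroid plexus and ependyma markers (7 of 7), oligodendrocyte precursor markers (4 of 6) and erythroid markers (4 of 4) fell, and their part in the neuronal values was not tested.

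**Figure D4:**
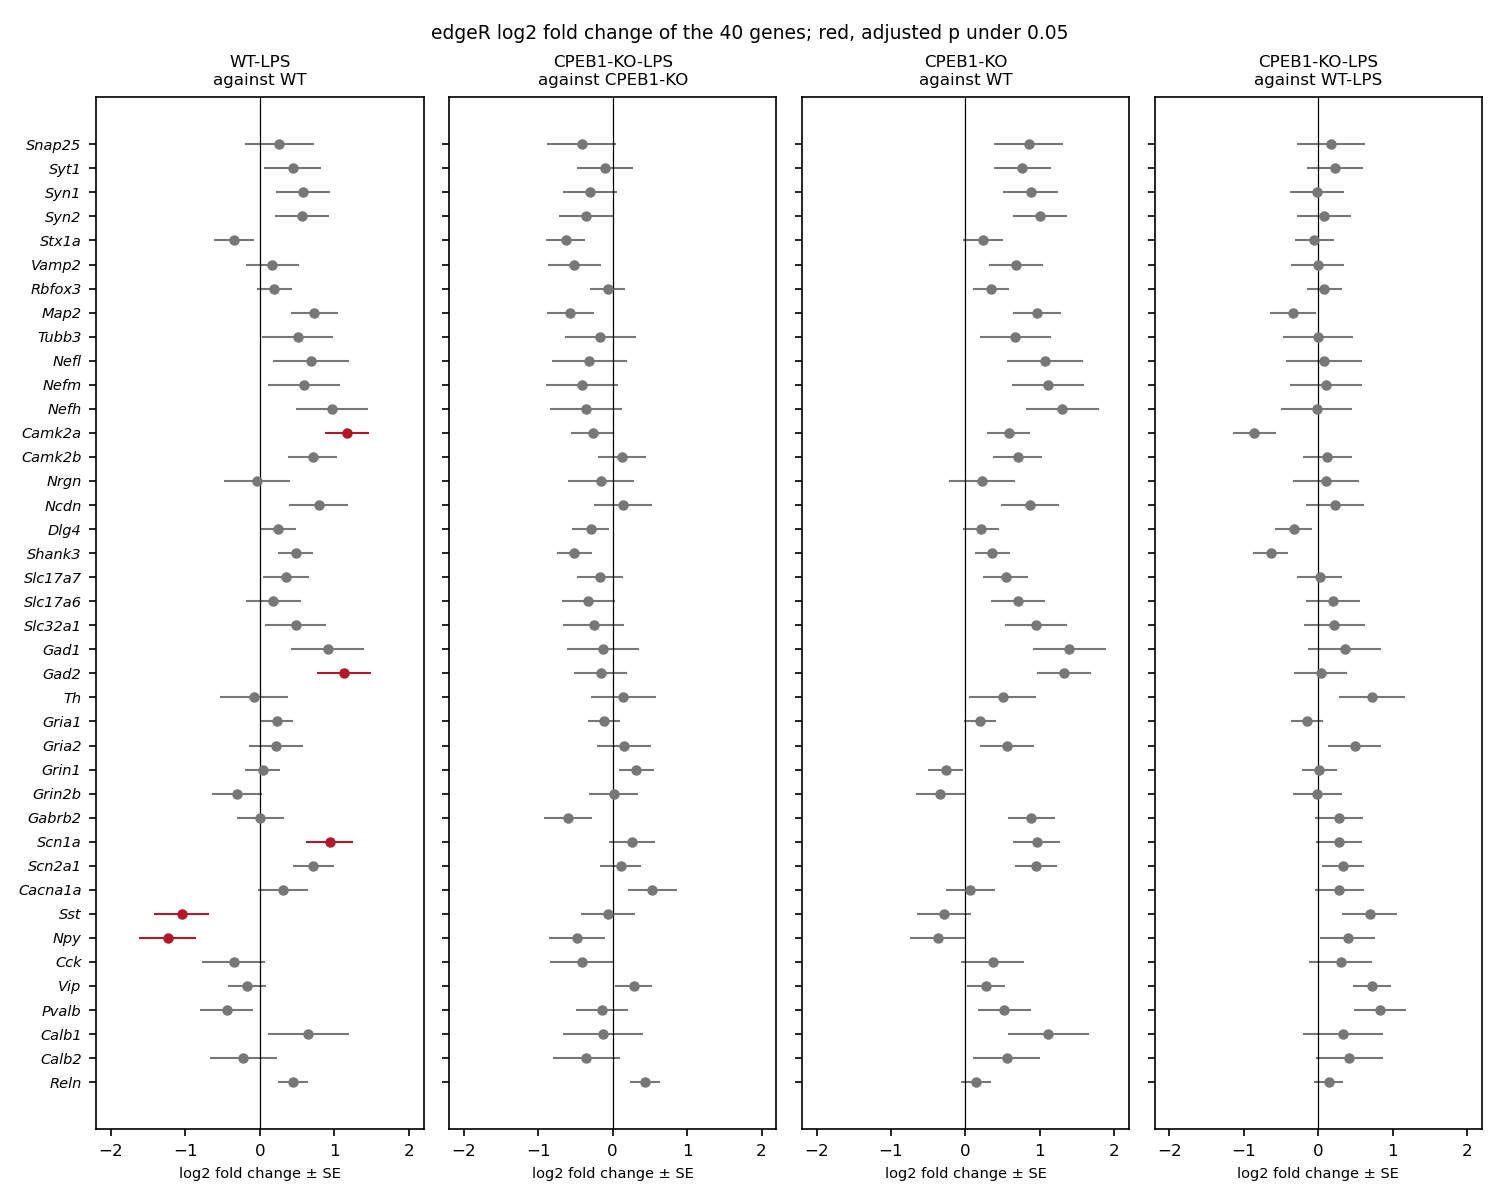
edgeR log2 fold change ± SE (horizontal axes, first-named group over the second, as above each panel) of the 40 genes, ordered by role, in 4 comparisons, with red for adjusted p under 0.05. Red points appear in WT-LPS against WT (Camk2a, Gad2, Scn1a, Sst and Npy), and 36 of 40 points lie to the right of 0 in CPEB1-KO against WT without a red one.

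In the knockout no listed gene passed the test for a response to LPS. In CPEB1-KO-LPS against CPEB1-KO, 0 of 40 passed with edgeR, against 6.22% of all genes (4.10% higher and 2.12% lower), and 3 had an unadjusted p under 0.05 (7.5%, against 20.5% of all genes). These were Stx1a (-0.63 ± 0.27, adjusted p = 0.196), Shank3 (-0.52 ± 0.23, adjusted p = 0.230) and Reln (0.44 ± 0.20, adjusted p = 0.235). Of the 40 changes 11 were positive with a median of -0.16, and 20 were positive with a median of 0.01 when scaled to the other neuronal genes. The median was -0.09 without CPEB1-KO-LPS replicate 3, -0.07 without CPEB1-KO replicate 3 and -0.31 without CPEB1-KO-LPS replicate 2. DESeq2 also called 0 members, against 10.8% of all genes. In TPM, 6 members lay below CPEB1-KO without overlap (Stx1a, Shank3, Npy, Cck, Calb2 and Slc32a1), against 15.0% of all genes, and 0 lay above it. In WT-LPS against WT, 5 members lay above without overlap (Camk2a, Scn1a, Scn2a1, Gria2 and Reln; 27.4% of all genes) and 0 below (10.8%). With the 2 knockout groups fitted alone, Stx1a passed (2.5% of members, 8.80% of all genes). Of the 72 other neuronal genes, 0 passed with edgeR and 4 had an unadjusted p under 0.05.

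The difference of the LPS response between genotypes (knockout minus wild type) passed for 0 of 40 members with edgeR, against 0.00654% of all genes. Unadjusted p was under 0.05 for 4 members (10%, against 15.5% of all genes), Camk2a (-1.44 ± 0.41, adjusted p = 0.195), Shank3 (-0.998 ± 0.330), Map2 (-1.30 ± 0.45) and Gad2 (-1.29 ± 0.51). The values were negative for 32 of 40 members, with a median of -0.56. Scaled to the other neuronal genes, 24 were negative with a median of -0.12. The median was -0.26 without WT-LPS replicate 1 and -0.88 without WT replicate 1. With DESeq2, Camk2a passed (2.5% of members, 1.97% of all genes), and without WT replicate 1 Map2 and Nefh passed (5% of members, 2.84% of all genes). A response that passed in wild type and not in knockout is therefore not shown to differ.

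Averaged over genotypes, LPS libraries against libraries without LPS gave 1 member higher and 1 lower, against 25.7% of all genes called (13.2% higher and 12.5% lower). Reln rose by 0.44 ± 0.14 (adjusted p = 0.0327), with 0.44 in either genotype, and Npy changed by -0.86 ± 0.28 (adjusted p = 0.0380). Reln passed in 12 of 20 alternatives and Npy in 11. The replicate block ended both calls (adjusted p = 0.0556 for Reln and 0.0516 for Npy), and scaling to the other neuronal genes ended that of Reln (adjusted p = 0.186). Without WT-LPS replicate 2 or 3 or without CPEB1-KO replicate 1, 0 members passed with edgeR, without WT replicate 1, 2 or 3 Npy did not pass, and without CPEB1-KO replicate 2 or 3 or CPEB1-KO-LPS replicate 2 Npy alone passed. DESeq2 called 4 members (10%, against 32.2% of all genes), the same 2 with Stx1a lower and Scn1a higher. Of the 72 other neuronal genes, 4 rose and 4 fell (11.1% called).

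Among the 40, long transcripts had higher log2 fold changes than short ones in WT-LPS against WT. Over the 40 members, log2 fold change in WT-LPS against WT and spliced length correlated with a Spearman rho of 0.49, against 0.28 over 15114 genes. In CPEB1-KO-LPS against CPEB1-KO these were 0.34 and -0.05. The genes share the same libraries and are not independent points, and the values are descriptions. The 10 shortest members, from Npy at 566 bases to Th at 1829, had a median of -0.19 in WT-LPS against WT, while the 10 longest, from Map2 at 5210.5 bases to Reln at 11699, had a median of 0.46. Npy and Sst, the 2 called lower, were the shortest of the 40, and Gad2 and Scn1a were among the longest. Camk2a, at 1734 bases by annotation, departed from this order. In WT replicate 1 it had 6461 counts at 226 TPM, near Syt1 with 5662 counts at 195 TPM and an annotated 4745 bases. TPM scales counts by length, so the length behind the TPM of Camk2a was near that of Syt1. Its departure, and its place among the 10 shortest, therefore rest on the annotated length. The same holds for Gabrb2, annotated at 3989 bases. In WT replicate 1 it had 1060 counts at 22.4 TPM, near Scn1a with 1070 counts at 20.6 TPM and an annotated 8116 bases. By that length Gabrb2 would be a long transcript, with a log2 fold change of 0.008 in WT-LPS against WT. The part of length in these values was not tested.

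**Figure D5:**
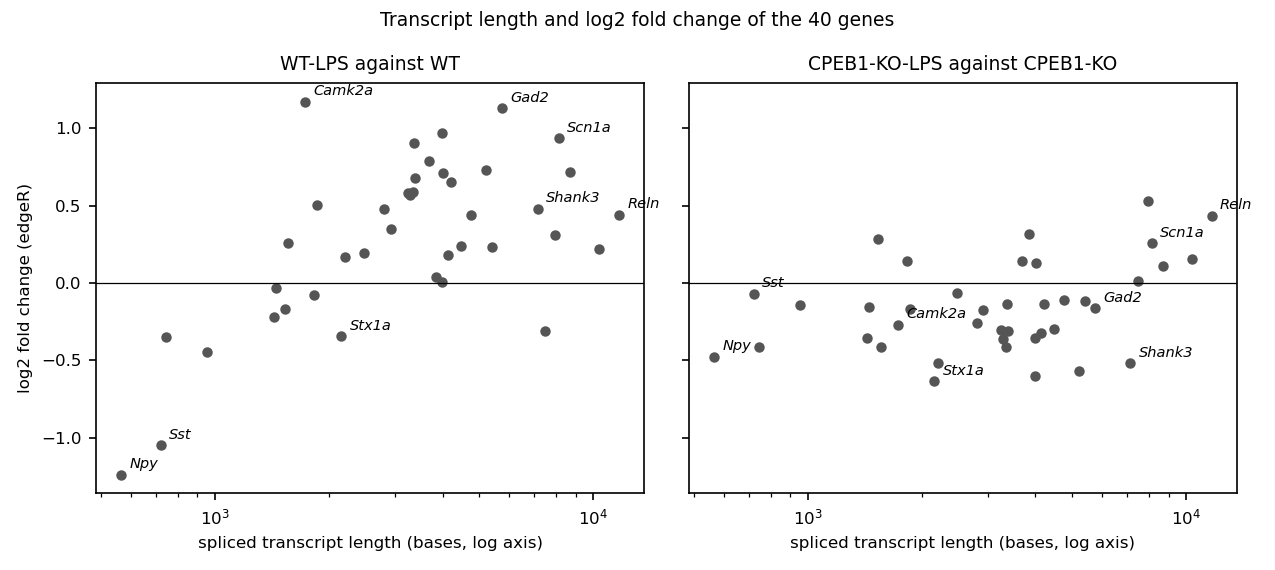
edgeR log2 fold change (vertical axis) of each of the 40 genes against the median spliced length in bases of its annotated transcripts (horizontal log axis), in WT-LPS against WT and in CPEB1-KO-LPS against CPEB1-KO. In the first panel Npy (566 bases) and Sst (721 bases) lie at the bottom left, and Camk2a, plotted at an annotated 1734 bases, stands apart at the top. The counts and TPM of Camk2a and of Gabrb2 imply longer transcripts than plotted.

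The comparison of genotypes without LPS asks how mice labelled CPEB1-KO differ at rest. In CPEB1-KO against WT, 36 of 40 members were higher by estimate, with a median log2 fold change of 0.62 against -0.03 over all genes, and 0 passed with edgeR (0.0327% of all genes called). The median was 1.06 without WT replicate 1, 0.37 without WT replicate 2 and 0.27 when scaled to the other neuronal genes. Unadjusted p was under 0.05 for 12 members, all positive (30% of members, 18.6% of all genes). Those with the smallest p were Gad2 (1.33 ± 0.37, adjusted p = 0.159), Scn2a1 (0.94 ± 0.28, adjusted p = 0.169), Map2 (0.96 ± 0.32, adjusted p = 0.186) and Scn1a (0.96 ± 0.32, adjusted p = 0.186). Gad1 had 1.40 ± 0.49 (adjusted p = 0.194) and Nefh 1.30 ± 0.49 (adjusted p = 0.208). The 4 members with negative estimates were Grin1 (-0.26), Grin2b (-0.34), Sst (-0.29) and Npy (-0.37).

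The WT libraries are the controls here and in the LPS response of wild-type mice, so both comparisons move with them. In TPM, 21 members lay above WT without overlap and 0 below, against 26.7% and 5.09% of all genes. They were 5 of the 6 vesicle-release genes (all but Snap25), Rbfox3, the 3 neurofilaments, Camk2b, Ncdn, Slc17a7, Slc32a1, Gad1, Gad2, Gria1, Gria2, Gabrb2, Scn1a, Scn2a1 and Reln. The TPM scale places the median of all genes at 0.26 in this comparison. The result rested on WT replicate 1: without it, 13 members passed, all higher (Syn1, Syn2, Map2, Nefl, Nefm, Nefh, Ncdn, Slc32a1, Gad1, Gad2, Scn1a, Scn2a1 and Calb1), of 1292 calls among 15550 genes (32.5% of members, 8.31% of all genes). DESeq2 called Gad2. Scaled to the other neuronal genes, 27 of 40 estimates were positive and the median of all genes moved to -0.45. Of the 72 other neuronal genes 63 had positive estimates, 0 passed with edgeR, and 29 had an unadjusted p under 0.05. Beside this, the 16 microglia markers had a median log2 fold change of -1.16 with 0 passing with edgeR, and summed microglia marker levels were 8203 to 13129 TPM in CPEB1-KO and 15898 to 19587 TPM in WT.

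The comparison of genotypes after LPS gave no call. In CPEB1-KO-LPS against WT-LPS 0 members passed with edgeR, against 0.00654% of all genes, and DESeq2 called 0, against 0.588%. Of the 40 estimates 29 were positive (26 with DESeq2 size factors, 33 when scaled to the other neuronal genes), with a median of 0.13 against 0.06 over all genes. The majority turned with 1 library: 17 were positive (median -0.03) without CPEB1-KO-LPS replicate 2 and 18 (median -0.02) without WT-LPS replicate 2, while the median was 0.43 without WT-LPS replicate 1. Unadjusted p was under 0.05 for 4 members (10%, against 10.8% of all genes), Camk2a (-0.86 ± 0.29, adjusted p = 0.422), Shank3 (-0.64 ± 0.23, adjusted p = 0.422), Vip (0.72 ± 0.25, adjusted p = 0.422) and Pvalb (0.83 ± 0.35, adjusted p = 0.441). Camk2a and Shank3 lay below WT-LPS without overlap in TPM, against 8.75% of all genes, and 0 members lay above (3.73%). All 8 peptides and subtype markers had positive estimates, from 0.14 (Reln) to 0.83 (Pvalb).

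Averaged over treatments, knockout libraries against wild-type libraries had 35 of 40 positive estimates and a median of 0.44. With edgeR 0 members passed, against 0.111% of all genes (0.0196% higher and 0.0915% lower), and with DESeq2 0, against 0.706%. The median was 0.25 without WT replicate 2 and 0.28 when scaled to the other neuronal genes. Unadjusted p was under 0.05 for 7 members (17.5%, against 11.6% of all genes), Scn2a1, Pvalb, Vip, Scn1a, Gabrb2, Gad1 and Gad2, with adjusted p of 0.387 or higher. The SE of these estimates ran from 0.14 to 0.39 on the log2 scale, and estimates that did not pass are not shown to be absent.

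The same libraries also carried markers of neurons of several regions. Cerebellar genes, led by Pcp4 and Pcp2, summed to 1050.3 to 3191 TPM, and striatal genes, led by Ppp1r1b and Penk, to 303 to 1048 TPM, with the lowest level in WT replicate 2 for both. Genes of monoamine and cholinergic neurons summed to 8.64 to 85.7 TPM. Neuronal transcription factors, among them Neurod1 and Neurod2, summed to 117 TPM in WT replicate 2 and 345 TPM in WT-LPS replicate 1, the same extremes as the 40 genes. Neuronal non-coding RNA departed from this. Meg3, a long non-coding RNA kept in neuronal nuclei, had 1082, 846 and 225 TPM in CPEB1-KO-LPS, 649, 599 and 392 TPM in CPEB1-KO, 366, 356 and 771 TPM in WT-LPS, and 553, 510.2 and 1974 TPM in WT. It was highest in WT replicate 3, where most of the 40 genes were low. Among its 3 lowest libraries was WT-LPS replicate 1, where the summed level of the 40 was highest.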

How the data were processed

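RNA-seq was made from Percoll-isolated microglia of 12 mice in 4 groups of 3, 1 animal per library. The members, the other gene lists and the rule for named genes were chosen with earlier results of these data known. The rule names all 40 members, Cpeb1, 6 microglia markers, and of each other list up to 4 genes by mean TPM and up to 4 called in a comparison. Some genes that the rule names are not reported here. The 72 other neuronal genes are the presynaptic, postsynaptic, axonal and channel lists together.

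The deposited expected counts were not normalised by the authors, whole in all but 3.69% to 4.66% of values, and the deposited TPM were scaled to 1e+06 within each library. The tools cutadapt and RSEM and the build mm10 are named per the submitters' processing notes, and the sources used here name no versions or aligner. Expected counts were rounded and modelled in edgeR (4.0.16, under R 4.3.3), after filterByExpr and TMM scaling, where a quasi-likelihood model with 1 mean per group gave the pairwise comparisons and the interaction (8 residual degrees of freedom, biological coefficient of variation 0.282). An additive model of genotype and LPS gave the averages (9 residual degrees of freedom). Tests were two-sided with Benjamini-Hochberg FDR 0.05 over all genes tested, and SE is the absolute log2 fold change over the square root of F. Scripts were tested on simulated counts. TPM levels are comparable between genes per length. Lengths are the median of GENCODE M21 transcripts matched by RefSeq accession, found for all 40 members and 15114 genes.

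Alternatives were RLE size factors, DESeq2 1.42.0, no filter, at least 1 CPM in 6 libraries, limma 3.58.1 on log2 of TPM + 1 or + 0.1, a replicate block, scaling to the other neuronal genes, the 2 groups compared alone, and each library left out. The blocked fit of WT-LPS and WT alone, and leaving out libraries from the ratio to microglia markers, were chosen after seeing the data. Deviations from the group mean correlated across genes between same-numbered WT-LPS and WT libraries with r = 0.42, 0.18 and 0.21. Replicate numbers were read as pairs only in the fits with a replicate block, and the main fits had no block. In the other comparisons of groups at least 1 pair was under 0.1, and labels tie no numbers. Library totals ran from 5.02 to 13.5 M expected counts, and the SE of the edgeR estimates also takes in the spread between libraries.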

Additional observations from a re-analysis of the deposited data

How the results depend on the processing

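No call reversed direction under any alternative run. In WT-LPS against WT 5 members passed. The count was 10 with limma at either pseudocount and 1 with the 2 groups alone. It was 13 with the replicate block in those 2 groups, a fit chosen after seeing the data. As single libraries were left out it ran from 1 to 17. With the replicate block over all libraries, RLE, DESeq2, either other filter or scaling to other neuronal genes it stayed within 1.5 times of 5. In CPEB1-KO-LPS against CPEB1-KO the count was 0, with 1 (Stx1a) in the 2 groups alone. In CPEB1-KO against WT it was 0, with 1 under DESeq2 (Gad2) and 0 to 13 as libraries were left out, 13 without WT replicate 1. The interaction gave 0, with 1 under DESeq2 (Camk2a) and 0 to 2 with a library left out, 2 without WT replicate 1. Average LPS gave 2, with 1 under the replicate block (Stx1a), 1 with limma at either pseudocount (Reln), 4 under DESeq2 and 0 to 3 with a library left out. CPEB1-KO-LPS against WT-LPS and average genotype stayed at 0 in the alternatives run. The replicate block changed no other count by over 1.5 times. The log2 ratio of summed TPM was 0.44 in WT-LPS against WT (-0.04 to 0.93 with a library left out), -0.25 in CPEB1-KO-LPS against CPEB1-KO (-0.38 to -0.05), 0.77 in CPEB1-KO against WT (0.50 to 1.26) and 0.08 in CPEB1-KO-LPS against WT-LPS (-0.16 to 0.56). Taken as a ratio to the microglia markers it was 1.64 (-0.07 to 2.24 with a library left out), 0.30 (-0.30 to 0.74), 1.57 (1.25 to 2.17) and 0.23 (-0.37 to 1.94) in the same order. The first was -0.07 without WT-LPS replicate 1, and the second -0.30 without CPEB1-KO-LPS replicate 2. These ranges of the ratio were added after seeing the data. The causes were not tested, except that fits on fewer samples have fewer residual degrees of freedom. With 3 libraries per group, and WT replicates 2 and 3 the shallowest at 5.02 and 5.40 M counts, differences that did not pass are not shown to be absent.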

Other observations

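A group of pituitary hormone transcripts stood out in 2 libraries, and its genes were chosen after their values were seen. Gh (growth hormone) had 4952 TPM in CPEB1-KO replicate 2 and 3158 TPM in WT-LPS replicate 3. It had 58.6 TPM in WT replicate 3, 16.8 TPM in WT replicate 2, 12.5 TPM in WT-LPS replicate 2, and at most 1 TPM in each of the other libraries. Prl (prolactin) had 1249 TPM and 490.0 TPM in the 2 libraries that led for Gh, and Pomc, the precursor of corticotropin, had 1166 and 161 TPM there, with 4.07 to 12.5 TPM in the other 10 libraries. Their summed neuronal levels of 11560.2 and 7322 TPM were the middle values of their groups.

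Snhg11, a long non-coding RNA of neurons, was highest in the same library of each group as Meg3. It had 1930.2, 1496 and 463 TPM in CPEB1-KO-LPS, 1130.4, 894 and 631 TPM in CPEB1-KO, 448, 539.9 and 1026 TPM in WT-LPS, and 605, 423 and 1478 TPM in WT. In CPEB1-KO the order of the libraries was the opposite of that of the summed neuronal level, and in WT the highest library was replicate 3 and not replicate 1.

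Markers of other cells in the preparations differed in WT-LPS against WT in both directions (edgeR, FDR 0.05). Of all genes, 12.4% were called higher and 14.9% lower in this comparison. Of 11 endothelial and mural markers 5 rose (Cldn5, Flt1, Ly6c1, Rgs5 and Slc2a1) and 3 fell, and of 10 astrocyte markers Gfap and Gjb6 rose. Of 10 oligodendrocyte markers Mog and Opalin fell, as did 4 of 6 border macrophage markers and 3 of the 6 lymphocyte markers tested. Of 6 neutrophil and 6 hypothalamic markers tested 0 passed with edgeR, and 1 and 0 of them had an unadjusted p under 0.05. Among regional neuronal markers, Itpr1 and Zic1 (cerebellum) and Chat and Ddc (cholinergic and monoamine neurons) rose, Rgs9 (striatum) fell, and of 6 neuronal non-coding RNAs Mirg fell.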
